A study of Saccharomyces cerevisiae with 16 samples.

Results

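The 200 yeast genes described here are those whose 3' UTR carried the most 40S footprints relative to their stop codon. Small ribosomal subunit (40S) footprints of the 3 unselected libraries were summed per gene, and 763 of 5818 genes had at least 30 counts in the 3' UTR and at least 10 at the stop codon. The 200 of these 763 with the highest ratio of 3' UTR to stop codon counts are called the members, and the remaining 563 the other eligible genes. The study used translation complex profiling, in which small subunits and whole ribosomes are fixed on mRNA with formaldehyde in growing cells and their RNase-protected fragments are sequenced. Selective libraries hold only complexes pulled down through a FLAG tag on an initiation factor. The 6 libraries of 40S used here came from Saccharomyces cerevisiae grown in rich medium, all of them carrying a tag. The eIF3a-bound library and unselected library 1-1 came from strain SY182 (TIF32-FLAG), the eIF3c-bound library and unselected library 1-2 from H25 (NIP1-FLAG), and the eIF2β-bound library and unselected library 1-3 from SY194 (SUI3-FLAG). Each factor was therefore selected in 1 library, and no untagged strain was among the libraries used.

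Translation ends when a stop codon enters the ribosome, the release factors free the protein, and Rli1 (ABCE1) splits off the large subunit. The 40S left on the mRNA is then removed by recycling factors such as the Tma20-Tma22 dimer, and subunits that escape removal can move on into the 3' UTR. eIF3 is the large scaffold factor of the initiating 40S and eIF2 brings the initiator tRNA, so that their footprints are mostly sought in the 5' UTR and at the start codon.

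The libraries held 3403297 (eIF3a), 4440991 (eIF3c) and 4486412 (eIF2β) counts over the 5 areas of all genes, against 2800652, 1595793 and 1891531 in unselected libraries 1-1, 1-2 and 1-3. Both libraries numbered 1-1, bound and unselected, stood apart from the others in genes that differ between the mating types of yeast. MFA2, which encodes a precursor of the mating pheromone a-factor, had 1352 (eIF3a), 107 (eIF3c) and 21.4 (eIF2β) counts per 1000000 library counts (CPM) over all areas, against 1511, 15.7 and 36.0 in unselected libraries 1-1, 1-2 and 1-3. STE3, the receptor for a-factor made by cells of the opposite mating type, had 7.35, 66.2 and 71.1 in the bound libraries and 13.9, 126 and 118 in the unselected libraries in the same order. The borders of the areas and the handling of strand were not given in the sources used here, so counts were not divided by the length of a 3' UTR.

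In the unselected libraries, which chose the members, the 3' UTR to stop ratio of the members had a median of 3.61, with 90% of them between 2.66 and 7.63. Among the other eligible genes the median was 1.32. These values are a description of the rule and no result. The last members inside the limit were PGM1 and YMR099C at 2.583 and COX5A at 2.576, and the next genes outside it were SAM1, GCN4 and ERG25, all at 2.574. The members had both more 3' UTR counts and fewer stop codon counts for their coding region: a median of 23.2 and 6.14 per 100 coding-region counts, against 11.6 and 9.14 in the other eligible genes. When the members were chosen on only 2 of the unselected libraries and read in the library left out, their summed ratio was 2.93 (1-1), 4.0 (1-2) and 3.32 (1-3), against 0.995, 1.2 and 1.04 for the other genes eligible in each case. Those choices shared 116, 149 and 143 genes with the 200.

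**Figure D1:**
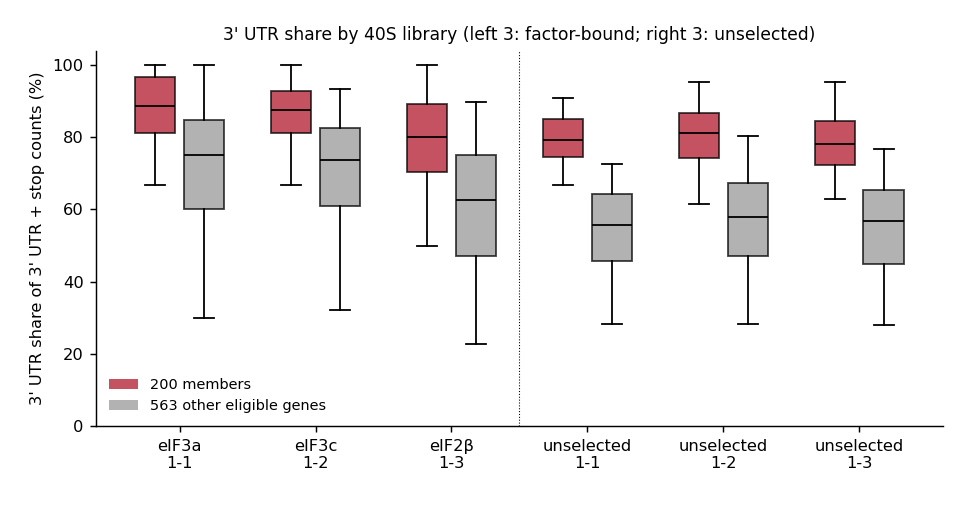
3' UTR share of the summed 3' UTR and stop codon counts of each gene, in percent, for the members (red, left of each pair) and the other eligible genes (grey) in the 3 factor-bound and the 3 unselected 40S libraries. Boxes span the quartiles with the median, whiskers the 5th to 95th percentile. Medians of the members were 88.7, 87.6 and 80% in the eIF3a-, eIF3c- and eIF2β-bound libraries, against 75, 73.7 and 62.5% in the other eligible genes. The unselected boxes differ by the rule.

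In the factor-bound libraries, which had no part in the choice, the members again had 3' UTRs richer in 40S than their stop codons. The median share of 3' UTR counts among 3' UTR and stop codon counts was 88.7% in the eIF3a-bound, 87.6% in the eIF3c-bound and 80% in the eIF2β-bound library, against 75, 73.7 and 62.5% in the other eligible genes. The share lay above the median of all eligible genes for 159 of 198 members with counts (eIF3a), 163 of 200 (eIF3c) and 158 of 200 (eIF2β), and in all 3 bound libraries for 117 members (58.5%), against 100 (17.8%) of the other eligible genes. For 6 members it lay above that median in none. The order of the factors was not particular to the members: the share was higher in both eIF3-bound libraries than in the eIF2β-bound library for 57% of the members and 62.9% of the other eligible genes. With 1 library per factor, a difference between the factors cannot be told apart from a difference between libraries.

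Summed over the 3 bound libraries, the ratio had a median of 5.93 in the members and 2.40 in the other eligible genes, where the unselected libraries gave 3.61 and 1.32. By library, the members' summed ratio was 7.67 (eIF3a), 7.67 (eIF3c) and 4.30 (eIF2β), against 4.04, 4.78 and 4.06 in unselected libraries 1-1, 1-2 and 1-3. Without the 10 members with the most counts it was 6.66, 6.12 and 3.83 in the bound libraries, against 3.95, 4.17 and 3.72 in the unselected ones. By these values the eIF2β-bound library lay within the range of the unselected libraries, and both eIF3-bound libraries lay above it. The rule chose the members by these unselected counts, so nothing is read from that order. With all members, the eIF2β-bound ratio lay above every ratio of the left-out unselected libraries given earlier, which came from other choices of members. The other eligible genes had summed ratios of 2.23, 2.04 and 1.22 in the bound libraries, against 1.11, 1.25 and 1.11 in the unselected ones. Per 100 coding-region counts, the members had a median of 3.22 stop codon counts in the bound and 6.14 in the unselected libraries, and of 18.1 3' UTR counts in the bound and 23.2 in the unselected libraries. The lower stop codon level was not particular to the members. As a share of a gene's counts, the stop codon had a median of 0.3695% (bound) and 1.495% (unselected) in the members. In the other eligible genes the medians were 0.5563 and 2.682%. Across all 763 eligible genes the ratios of the bound and the unselected sums had a Spearman rho of 0.66. This is a description across genes, which share libraries, strains and the genes' own 3' UTR lengths.

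**Figure D2:**
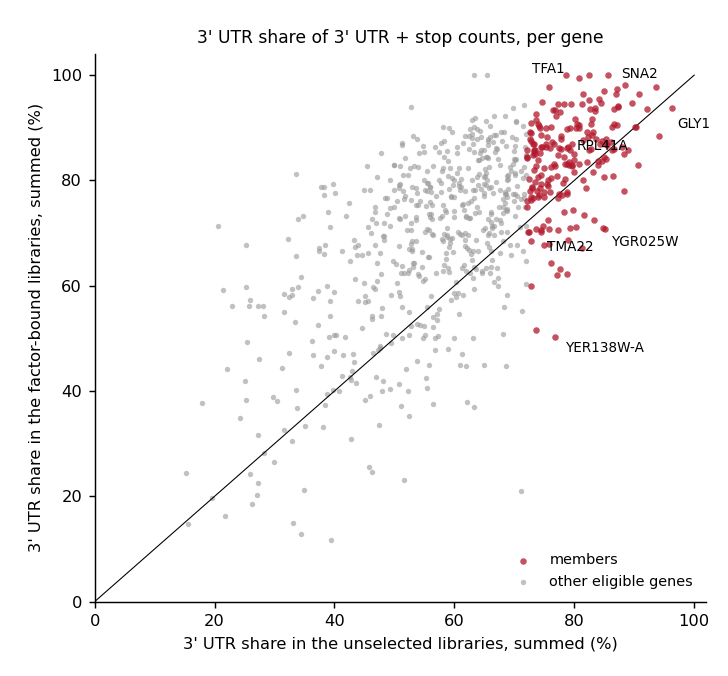
3' UTR share of 3' UTR and stop codon counts per gene, in percent, summed over the 3 factor-bound libraries (vertical) and over the 3 unselected libraries (horizontal), for members (red) and other eligible genes (grey). The line marks equal shares. Most genes lie above it, and the left border of the red points is set by the rule. TFA1 and SNA2 lie near the top, and YER138W-A is the lowest member.

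Within the bound libraries the 3' UTR was tested against the stop codon gene by gene, with the library as a block and the log2 fold set relative to the typical gene. By the quasi-likelihood test of edgeR, with p-values adjusted after Benjamini-Hochberg over all genes tested, 115 members passed the filter on low counts, 64 of them were higher in the 3' UTR and 1 was lower, where 25 and 27.6% of the 529 genes tested were called higher and lower. A gene can pass that filter through its 3' UTR alone, and only 35 members would have passed it on their stop codon counts. With the filter removed and the same scaling kept, all 200 members and 563 other eligible genes were tested. Then 57 members were higher and 1 was lower, against 28 higher and 87 lower among the other eligible genes, with 2.34 and 4.8% of the 4913 genes tested called higher and lower. The median log2 fold of the 200 members was 1.09, and 175 of them lay above 0.

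TFA1, the large subunit of the general transcription factor TFIIE (YKL028W, chromosome XI, 385758 to 387206, build R64), was the extreme case. Its 3' UTR held 93 (eIF3a), 110 (eIF3c) and 166 (eIF2β) counts, against 24, 24 and 36 in unselected libraries 1-1, 1-2 and 1-3. Its stop codon held 2, 0 and 0 counts in the bound libraries, against 11, 5 and 4 in the unselected libraries. Every bound library was thus above every unselected library in the 3' UTR and below it at the stop codon. The stop codon counts of all genes were also lower in the bound libraries, at 16975 (eIF3a), 35032 (eIF3c) and 32981 (eIF2β). Unselected libraries 1-1, 1-2 and 1-3 held 61043, 37794 and 41161. With 2 stop codon counts of TFA1 in all, its bound ratio of 185 has a 95% exact counting interval of 50.7 to 1529. The next gene on the same strand, TCD2, begins 355 nt downstream and held 164 5' UTR counts in the bound and 35 in the unselected libraries. The 5' UTR counts of all genes were also higher in the bound libraries, at 646500 (eIF3a), 823966 (eIF3c) and 1124386 (eIF2β). Unselected libraries 1-1, 1-2 and 1-3 held 254592, 152719 and 187147. The part of TCD2 in the result was not tested.

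SNA2, a gene for a small membrane protein (YDR525W-A, chromosome IV, 1490596 to 1490835), had 78, 159 and 130 3' UTR counts in the eIF3a-, eIF3c- and eIF2β-bound libraries, against 48, 42 and 32 in unselected libraries 1-1, 1-2 and 1-3. Its stop codon held 3, 1 and 3 counts in the bound libraries and 7, 2 and 7 in the unselected libraries. The log2 fold of 3' UTR over stop codon in the bound libraries was 4.25 ± 0.43 (SE) in edgeR's quasi-likelihood test. SNA2 passed the filter of that test through its 3' UTR counts alone, so no p-value is given. RBA50 begins 258 nt downstream on the same strand, and its annotated 5' UTR held 21 counts in the bound and 8 in the unselected libraries. The part of initiation on RBA50 in the counts of SNA2 was not tested.

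BCP1, a chaperone of a large-subunit ribosomal protein (YDR361C, chromosome IV, 1195412 to 1196263), had 38, 49 and 50 3' UTR counts in the eIF3a-, eIF3c- and eIF2β-bound libraries and no stop codon count in any of them. In unselected libraries 1-1, 1-2 and 1-3 it had 42, 25 and 16 3' UTR counts and 9, 2 and 3 stop codon counts. Against a floor of 3 stop codon counts over the bound group, its 3' UTR was at least 45.7-fold higher. ATG41 and YKL068W-A also had no stop codon count in the bound libraries, with 22 and 24 3' UTR counts. In all, 19 members and 8 other eligible genes had 3 or fewer stop codon counts there.

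YNL190W, annotated as a cell wall protein (chromosome XIV, 282395 to 283009), had 126, 279 and 132 3' UTR counts in the bound libraries, against 183, 88 and 111 in the unselected libraries. At the stop codon it had 4, 7 and 1 counts in the bound and 11, 8 and 7 in the unselected libraries. Its log2 fold of 3' UTR over stop codon was 4.0 ± 0.37 in the bound libraries, and it too passed the filter through its 3' UTR counts alone. DED1, the DEAD-box helicase that aids scanning (YOR204W, chromosome XV, 722911 to 724725), had 60, 125 and 34 3' UTR counts and 0, 1 and 5 stop codon counts in the bound libraries. In the unselected libraries DED1 had 105, 70 and 67 3' UTR counts and 17, 4 and 15 at the stop codon. The groups overlapped at the stop codon in raw counts, but in CPM every bound library lay below every unselected one. The stop codon sum of all genes did so too. The log2 fold of DED1 was 3.59 ± 0.61, again with the filter passed through the 3' UTR counts alone. For PUB1, a poly(A)- and poly(U)-binding protein, and YPT1, a Rab GTPase of the secretory pathway, the log2 folds were 3.49 ± 0.52 and 3.28 ± 0.44.

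The only member called lower in this test was YER138W-A, a short open reading frame (chromosome V, 449474 to 449578). Its 3' UTR held 205, 146 and 216 counts in the bound libraries and 233, 108 and 72 in the unselected ones, while its stop codon held 170, 225 and 168 counts in the bound libraries, against 76, 16 and 33 in the unselected. The bound stop codon counts lay above all unselected ones, and the ratio was 1.01 in the bound and 3.30 in the unselected libraries. Its log2 fold of 3' UTR over stop codon in the bound libraries was -1.44 ± 0.25 (edgeR adjusted p of 4.48e-05). Scaled to whole libraries instead of the typical gene, that fold was 0.01, so its direction depends on the scaling.

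In CPM, the 3' UTRs of the members were lower when a factor was selected. The members' summed 3' UTR counts were 3556, 5948 and 2623 CPM in the eIF3a-, eIF3c- and eIF2β-bound libraries, against 7845, 9889 and 8263 in unselected libraries 1-1, 1-2 and 1-3. Every bound sum lay below every unselected one. Relative to the same strain without selection, the sum was 0.453, 0.601 and 0.317 times as high, and for the other eligible genes 0.452, 0.552 and 0.378. The level was lower than in the own strain for 194 (eIF3a), 179 (eIF3c) and 193 (eIF2β) of the 200 members. All bound libraries lay below all unselected libraries for 147 members (73.5%), against 441 (78.3%) of the other eligible genes. Because the unselected counts chose the members, these values are described and not tested, and the other eligible genes were lower as well.

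**Figure D3:**
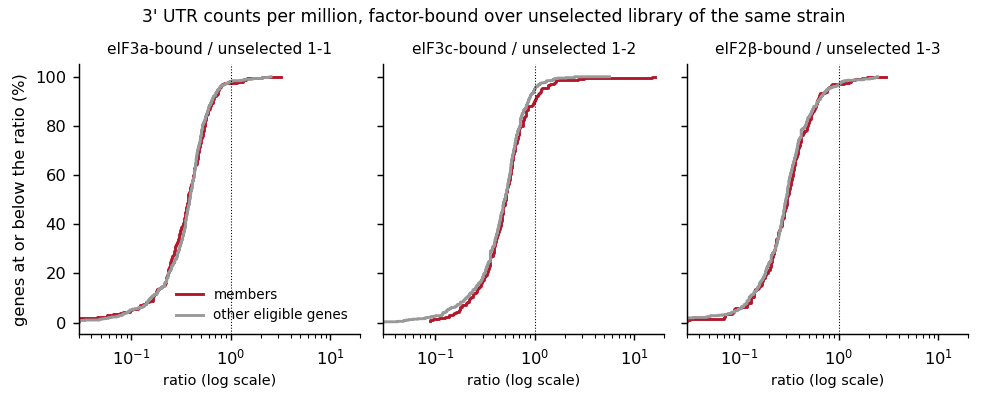
Cumulative share of genes, in percent, by the ratio of 3' UTR CPM in each factor-bound library over the unselected library of the same strain (log scale), for members (red) and other eligible genes (grey). Ratios under 0.03 are drawn at 0.03, and 1 other eligible gene with no count in the unselected library is left out of each of the eIF3c and eIF2β panels. The curves lie close together and mostly left of the dotted line at 1. The medians of the members were 0.371, 0.514 and 0.305 for eIF3a, eIF3c and eIF2β.

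The members held about the same part of all 3' UTR counts in every library. They took 27.0% (eIF3a), 30.1% (eIF3c) and 24.3% (eIF2β) of the 3' UTR counts of all genes, against 26.2, 26.8 and 25.7% in unselected libraries 1-1, 1-2 and 1-3. The 95% Wilson intervals, which cover counting error only, ran from 26.6 to 27.4% (eIF3a), 29.8 to 30.4% (eIF3c) and 23.9 to 24.7% (eIF2β). The unselected libraries lay between the eIF2β- and the eIF3a-bound library. The 10 members with the most counts supplied 48.3, 54.0 and 45.5% of the members' 3' UTR counts in the bound libraries and 45.2, 50.8 and 49.5% in the unselected ones.

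Relative to the typical 3' UTR, single members departed in both directions. In edgeR's quasi-likelihood test of the 3 bound against the 3 unselected libraries, scaled on 3' UTR counts and adjusted after Benjamini-Hochberg, 183 members passed the filter. Of these, 4 were called higher and 5 lower, where 4 and 2.21% of the 725 genes tested were called in those directions. With the strain as a block the counts were 10 and 7 (6.07 and 3.59% of genes). Since the rule used these unselected counts, nothing is read from the numbers of calls, and the folds of single members are a description: a high unselected count both favours membership and lowers the fold. The higher ones were TFA1 (log2 fold 2.51 ± 0.40), YGR025W (2.37 ± 0.33), SNA2 (1.91 ± 0.25) and YNL190W (0.78 ± 0.19). TFA1, YGR025W and SNA2 also had a higher CPM than in the own-strain unselected library in all 3 strains, and no other member did. YNL190W did so only in the eIF3c strain: its levels were 37.0, 62.8 and 29.4 CPM in the bound libraries, against 65.3, 55.1 and 58.7 in the unselected, and scaled to whole libraries its log2 fold was -0.47. Its call was also lost when any of the 6 libraries was left out, and that of TFA1 without unselected library 1-2 (log2 fold 2.44).

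YGR025W, a short open reading frame (chromosome VII, 532639 to 532941), had 75, 86 and 78 3' UTR counts in the bound libraries, against 30, 20 and 11 in the unselected. Its stop codon counts moved the same way, with 17, 52 and 29 in the bound libraries and 4, 1 and 6 in the unselected, and no library of either group overlapped the other. YGR026W begins 43 nt after its stop codon on the same strand. The 5' UTR of YGR026W held 2742 counts in the bound libraries and 547 in the unselected. The 5' UTR counts of all genes were also higher in each bound library. The part of initiation on YGR026W in the 3' UTR counts of YGR025W was not tested, and the borders of the areas were not given.

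The member with the highest ratio, GLY1 (threonine aldolase, YEL046C, chromosome V, 67629 to 68792), was among those called lower. Its 3' UTR held 110, 182 and 132 counts in the eIF3a-, eIF3c- and eIF2β-bound libraries, against 762, 364 and 460 in unselected libraries 1-1, 1-2 and 1-3. In CPM these were 32.3, 41.0 and 29.4 in the bound and 272, 228 and 243 in the unselected libraries, and the groups did not overlap. The log2 fold relative to the typical 3' UTR was -1.54 ± 0.20. Its stop codon had 1, 13 and 14 counts in the bound and 30, 11 and 20 in the unselected libraries, and within the bound libraries the 3' UTR still exceeded the stop codon by a log2 fold of 2.56 ± 0.34. The nearest downstream gene, FRD1 on the same strand, begins 831 nt away and had 1 count in its 5' UTR in each group.

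RPL8A, a large-subunit ribosomal protein (chromosome VIII, 35255 to 36025), had 31.4, 46.8 and 21.4 3' UTR CPM in the bound libraries, against 142, 157 and 160 in the unselected, a log2 fold of -0.93 ± 0.17. MDH2, cytosolic malate dehydrogenase (chromosome XV, 81787 to 82920), had 4, 12 and 5 counts in the bound and 40, 45 and 30 in the unselected libraries, a log2 fold of -2.20 ± 0.37. LSO2, a small ribosome-associated protein (chromosome VII, 836387 to 836665), had 17, 21 and 16 counts in the bound and 60, 55 and 42 in the unselected libraries, a log2 fold of -1.20 ± 0.29. HSP150, a secreted cell wall mannoprotein of the Pir family (chromosome X, 120449 to 121690), had 135, 359 and 111 counts in the bound and 498, 350 and 378 in the unselected libraries, a log2 fold of -0.82 ± 0.21. The calls of LSO2 and HSP150 were lost on leaving out any of the 6 libraries for LSO2 and all but the eIF3c-bound one for HSP150, with log2 folds of -1.04 to -1.35 and -0.69 to -0.93. In CPM, all 4 genes were lower in every bound than in every unselected library, as were most members and most other eligible genes.

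The members with the most counts were RPL41A and RPL41B, which encode the same very short protein of the large subunit. RPL41A (chromosome IV, 130407 to 130484) had 1525, 3885 and 1290 3' UTR counts in the eIF3a-, eIF3c- and eIF2β-bound libraries, against 2266, 1754 and 1781 in unselected libraries 1-1, 1-2 and 1-3. RPL41B (chromosome IV, 221724 to 221801) had 1336, 3111 and 1149 counts in the bound and 1858, 1618 and 1484 in the unselected libraries. Their coding regions are near-identical, so the counts there are uncertain where the authors' counting could split them. Their bound ratios were 9.72 (RPL41A) and 6.70 (RPL41B), against 4.84 and 3.92 in the unselected libraries. In edgeR's test of 3' UTR over stop codon within the bound libraries the log2 folds were 1.75 ± 0.26 and 1.22 ± 0.25 for RPL41A and RPL41B.

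YDR524C-B, a short open reading frame (chromosome IV, 1489598 to 1489798), had 858, 2032 and 813 3' UTR counts in the bound and 1448, 1105 and 1098 in the unselected libraries. Its stop codon had 42, 92 and 71 counts in the bound libraries, against 294, 164 and 211 in the unselected, with no overlap between the groups. Summed over all genes, the stop codon counts did not overlap between the groups either. RPS28B, a small-subunit protein whose long 3' UTR is known to hold a decay element that acts with Edc3 (chromosome XII, 673131 to 673334), had 636, 1800 and 604 3' UTR counts in the bound and 935, 850 and 894 in the unselected libraries. Its stop codon had 23, 86 and 60 counts in the bound and 101, 89 and 119 in the unselected libraries. Each bound library was thus lower, as in the sum over all genes. Within the bound libraries 3' UTR over stop codon was 2.67 ± 0.24 (YDR524C-B) and 2.69 ± 0.25 (RPS28B) on the log2 scale.

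RPL38 (chromosome XII, 781143 to 781379) had 408, 936 and 435 3' UTR counts in the bound and 676, 535 and 566 in the unselected libraries, with ratios of 6.38 and 2.92. CWP2, a cell wall mannoprotein (chromosome XI, 259253 to 259531), had 253, 761 and 321 counts in the bound and 536, 672 and 398 in the unselected libraries, with ratios of 6.24 and 3.45. In both genes the eIF3c-bound library had the most counts, and in CPM all bound libraries lay below all unselected ones. RPS30A and RPL10 had bound ratios of 4.07 and 3.19 and unselected ratios of 3.64 and 2.59. Within the bound libraries the log2 fold of 3' UTR over stop codon was 0.55 ± 0.21 for RPS30A and 0.19 ± 0.21 for RPL10, the second not past the threshold (edgeR adjusted p of 0.433).

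**Figure D4:**
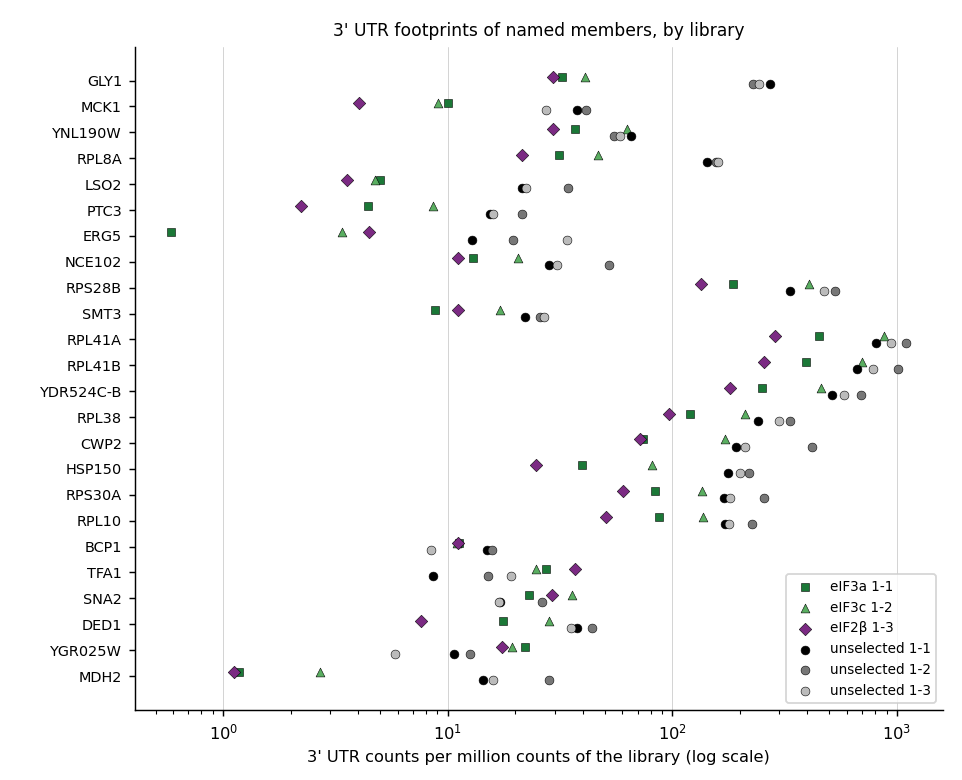
3' UTR CPM (log scale) of named members, 1 row per gene, with the 3 factor-bound libraries (coloured symbols) above the 3 unselected libraries (black and grey circles) in each row. From the top, the first rows are the 10 members with the highest ratio, then those with the most counts, then BCP1, TFA1, SNA2, DED1, YGR025W and MDH2. Coloured symbols lie left of the circles in most rows. Those of TFA1 and YGR025W lie right of every circle.

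Among the remaining members with the highest ratios, MCK1, a protein kinase of the GSK3 family, had 34, 40 and 18 3' UTR counts in the bound and 105, 66 and 52 in the unselected libraries. PTC3, a type 2C protein phosphatase, had 15, 38 and 10 in the bound and 43, 34 and 30 in the unselected libraries, and its bound ratio of 4.85 compares with 9.73 unselected. ERG5, a desaturase of ergosterol synthesis, had 2, 15 and 20 in the bound and 36, 31 and 64 in the unselected libraries. All 3 genes were lower in CPM in every bound library than in every unselected one, as were most members and most other eligible genes. NCE102, an eisosome protein of the plasma membrane, had ratios of 9.25 (bound) and 9.17 (unselected), and SMT3, the yeast SUMO, had 6.0 and 8.11.

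By function, 12 of the 87 eligible genes for cytosolic ribosomal proteins were members (13.8%), while 26.2% of all eligible genes were. These were RPL8A, RPS28B, RPL41A, RPL41B, RPS27A, RPS30A, RPS11B, RPL38, RPS22A, RPL6A, RPS25B and RPL10, with a median ratio of 4.92 in the bound and 3.64 in the unselected libraries. All 12 passed the filter of the test of 3' UTR over stop codon, and 8 were called higher and none lower. Of the 115 members tested 64 were called higher, and of all genes tested 25% higher and 27.6% lower. Without the filter 6 of the 12 were called higher, beside 28.5% of all members and 2.34% of all genes, most of which have far fewer counts. Members among the other lists were 5 of 10 histone genes (HTB2, HTA2, HHO1, HTZ1 and HTA1), 5 of 16 proteasome subunits (PUP3, PRE10, RPN13, RPN7 and PUP2), 2 of 16 glycolytic enzymes (PFK2 and HXK2) and 1 of 8 mitochondrial ribosomal proteins (MRPL20). Of the 4 histone members that passed the filter 2 were called higher (HTA2 and HTA1), and without it 1 of 5 (HTA1). Of the 5 proteasome members 2 passed the filter, and 0 were called with or without it. The median ratio of the proteasome members was 2.41 in the bound and 3.41 in the unselected libraries, and that of the histone members 5.43 and 2.87. Many ribosomal protein and histone genes have near-identical copies, so their counts share that uncertainty.

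Further lists were drawn up after the values were seen and support nothing. Of 17 eligible genes for cell wall proteins 13 were members, among them SED1, CWP2, HSP150, CCW14, TIP1, UTH1, PIR1 and GAS1. Their median ratio was 6.24 in the bound and 4.0 in the unselected libraries. SED1, the main cell wall protein of stationary phase, had 166, 431 and 149 3' UTR counts and 2, 24 and 26 stop codon counts in the bound libraries. In the unselected libraries it had 394, 394 and 273 3' UTR counts and 61, 96 and 67 at the stop codon. The bound stop codon counts of SED1 lay below all of these, as did those of all genes together below their unselected sums. Of 31 eligible genes of the respiratory chain and ATP synthase 14 were members, including COX4, COX6, COX8, QCR6, QCR8, QCR9, RIP1 and CYC1, with a median ratio of 6.61 in the bound and 3.34 in the unselected libraries.

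Of the factors that recycle or rescue ribosomes, 4 genes were eligible and 2 were members. RLI1, the ABCE1 protein that splits the terminated ribosome (chromosome IV, 626708 to 628534), had 18, 58 and 22 3' UTR counts and 4, 1 and 2 stop codon counts in the bound libraries, against 37, 18 and 28 and then 10, 5 and 10 in the unselected. Its log2 fold of 3' UTR over stop codon in the bound libraries was 2.19 ± 0.67, and RLI1 passed the filter through its 3' UTR counts alone. It was also called higher with the filter removed and the scaling kept. TMA22, part of the dimer that removes the 40S (chromosome X, 461829 to 462425), had 17, 18 and 11 3' UTR counts and 5, 9 and 5 stop codon counts in the bound libraries, against 26, 21 and 20 and then 8, 2 and 14 in the unselected. Its ratios were 2.42 and 2.79, and it was not called. NIP1, chosen for mention after its values were seen, encodes eIF3c itself, the protein tagged in the strain of the eIF3c-bound library. It had 56, 87 and 91 3' UTR counts and 5, 3 and 7 stop codon counts in the bound libraries, against 61, 68 and 50 and then 20, 0 and 6 in the unselected. The groups overlapped in the 3' UTR of NIP1 in raw counts, but in CPM every bound library lay below every unselected one.

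Elsewhere on the same mRNAs, the members had 5' UTRs with a larger part of the gene's 40S counts than the other eligible genes: a median of 16.5% in the bound and 8.45% in the unselected libraries, against 10.2 and 5.07%. The start codon held 59.2% of a member's counts in the bound and 49.5% in the unselected libraries, a smaller part than the 65.7 and 51.9% of the other eligible genes. In edgeR's quasi-likelihood test of bound against unselected libraries within the 5' UTR, 160 members passed the filter, and 0 were higher and 0 lower, where 0 and 1.67% of the 2036 genes tested were called. At an unadjusted p under 0.05 there were 18 of these members. The share of all genes at that p is not given here, so nothing is read from the 18. DESeq2 also called 0 and 0 members, where it called 1 higher and 38 lower of the 2036 genes. With the strain as a block 4 were higher and 9 lower (1.57 and 5.16% of genes).

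At the start codon 2 members were higher and 20 lower by the same test with Benjamini-Hochberg adjustment, where 1.34 and 5.12% of the 3868 genes tested were called. The same calls were made for 12 and 63 of the 563 other eligible genes, so that 10% of the members and 11.2% of the other eligible genes were lower. The lower members included FMP52 (log2 fold -2.48 ± 0.28), YDL086W (-2.36 ± 0.25) and UTR2, a cell wall transglycosidase (-2.15 ± 0.25). Ribosomal protein genes among them were RPL8A (-1.52 ± 0.19), RPL38 (-1.48 ± 0.19), RPS22A (-1.24 ± 0.19), RPL6A (-0.87 ± 0.14), RPS28B (-0.87 ± 0.17) and RPS27A (-0.84 ± 0.20). The higher ones were COX9 (1.14 ± 0.28) and RPN7 (1.02 ± 0.23), and each lost its call on leaving out 5 of the 6 libraries in turn (log2 folds of 0.78 to 1.23 and 0.86 to 1.10). With the strain as a block 41 members were higher and 50 lower (12.6 and 16.2% of genes).

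In coding regions 32 members were higher and 22 lower in the bound libraries, where 14.4 and 11.8% of the 4797 genes tested were called. Among the other eligible genes 88 (15.6%) were higher and 91 (16.2%) lower, against 16 and 11% of the members. YGR025W (log2 fold 2.97 ± 0.47), IES4 of the INO80 complex (2.21 ± 0.27), CPP2 (1.94 ± 0.27) and HSK3 of the DASH complex (1.93 ± 0.22) were highest. SNA2 (1.53 ± 0.24) and RPL41A (1.00 ± 0.18) were also higher. UTR2 (-1.61 ± 0.21), the acid phosphatase PHO3 (-1.41 ± 0.20), BDF2 (-1.40 ± 0.23) and NIP1 (-1.18 ± 0.19) were lowest. With the strain as a block 43 were higher and 36 lower (19.9 and 17.2% of genes).

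The genes themselves were short more often than the rest. A span of 300 nt or less from start to stop codon, introns included, was annotated for 35 members (17.5%), against 44 (7.82%) of the other eligible genes. The median was 768 nt in the members and 861 nt in the other eligible genes. In the short, the middle and the long tertile of eligible genes the members had median bound ratios of 5.90, 6.0 and 5.21, against 2.75, 2.26 and 2.36 for the other eligible genes, so the members were higher in each tertile.

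**Figure D5:**
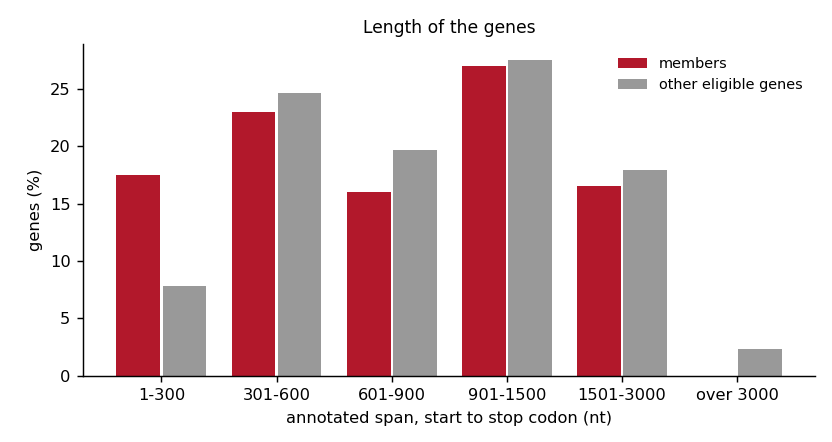
Percent of the 200 members (red) and of the 563 other eligible genes (grey) by annotated span from start to stop codon in nt. The members have more genes of 300 nt or less, 17.5% against 7.82% and the longest member spans 2880 nt.

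A second gene downstream, whose initiating 40S could be counted in the same stretch, was annotated within 300 nt for few members. This holds for that limit only: within 600 nt the share of members was larger and is given in the last section. No share of the other eligible genes at 600 nt is set beside it. TFA1, followed by TCD2, lay outside the 300 nt limit. A coding gene on the same strand began within 300 nt of the stop codon for 11 members (5.5%), against 59 (10.5%) of the other eligible genes. The share was 2.5% or 3% when unselected library 1-2 or 1-3 was left out of the choice of members. The 11 were SNA2, BUD23, YGR025W, PHO3, PRE10, STT3, MRPL20, SUR7, TMA22, FMP52 and RPL10. Their median ratio was 3.33 in the bound and 3.08 in the unselected libraries, against 6.0 and 3.61 for the other 189 members. The nearest downstream gene was convergent for 108 members (54%) and 282 (50.1%) of the other eligible genes. A noncoding RNA gene lay within 300 nt for 3 members, TIM9, FAA4 and SSA1, and 1 member, NHP6A, overlapped a gene on its own strand.

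MFA1 and MFA2, both members and chosen for mention after their values were seen, varied widely between libraries of the same group. MFA2 had 348, 223 and 22 3' UTR counts in the bound libraries, against 363, 5 and 19 in unselected libraries 1-1, 1-2 and 1-3. MFA1 had 91, 84 and 12 in the bound and 223, 2 and 9 in the unselected libraries. Both were low in unselected library 1-2 but not in the eIF3c-bound library that the labels give to the same strain. Over all areas that pair had 107 (eIF3c-bound) and 15.7 (unselected 1-2) CPM of MFA2, and 66.2 and 126 CPM of STE3. The other mating-type genes looked at differed likewise, among them STE2 (25.7 and 7.52 CPM) and SAG1 (97.7 and 249 CPM). The ratios of the eIF3c-bound library to its own strain take the labels as given, and the part of such differences in them was not tested.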

How the data were processed

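Counts of 40S footprints per gene in 5 areas, from the 5' UTR to the 3' UTR, were used as deposited by the authors, as whole numbers without normalization. Reads had been processed with CASAVA 1.8, Bowtie 1.2.2, Bowtie2 2.2.6 and TopHat2 2.1.0 on build R64, per the submitters' processing notes. Nothing in the sources used here gives the counting tool or the borders of the areas. The column header of library 1-3 names eIF2alpha where the labels name eIF2β; the labels were followed.

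Ratios, shares and CPM (per library, over all 5 areas) were computed from these counts. The 3 bound libraries, 1 per factor, were tested together against the 3 unselected ones with edgeR 4.0.16 (limma 3.58.1, R 4.3.3): genes were filtered with filterByExpr, scaled by TMM on the counts of the area, fitted with the quasi-likelihood test and called at a Benjamini-Hochberg adjusted p under 0.05. A fold is therefore relative to the typical gene of that area, and values after ± are SEs of the log2 fold. The 3' UTR was tested against the stop codon in the same way within the bound libraries, with the library as a block. DESeq2 1.42.0, other scalings, no filter and the omission of single libraries were alternatives. The procedure was tested on simulated counts. Same-numbered libraries came from the same strain, per the labels, and their deviations from the group means correlated at 0.183 to 0.295 in the 3' UTR and 0.256 to 0.589 in the other areas tested, so the strain was used as a block in an alternative. Whether libraries came from separate cultures is not stated. The p-values therefore reflect only how these libraries scatter, differences between the 3 factors included. No 2 libraries held the same counts.

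The members and the gene lists were chosen with earlier results of these data known. Named genes were the 10 members with the highest ratio, the 10 with the most 3' UTR counts, the 5 called members with the largest change each way in the 3' UTR tests (against unselected libraries, those without overlap), the 3 genes either side of rank 200 and next genes within 300 nt. Others, among them all genes of the start codon, coding region and list paragraphs, were chosen after their values were seen. Gene positions and names came from RefSeq's table for R64, which matched all 200 members.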

Additional observations from a re-analysis of the deposited data

How the results depend on the processing

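Scaling to whole libraries instead of the area moved the median 3' UTR by -1.22 on the log2 scale and changed most counts of members called: 2 higher and 131 lower in the 3' UTR, 115 higher in the 5' UTR, 21 higher at the start codon, 5 higher and 139 lower in coding regions, and 112 higher and 0 lower for 3' UTR over stop codon. All genes moved in the same way. In the 3' UTR 12 were higher and 516 lower of 725, and in the 5' UTR 1168 of 2036 were higher. At the start codon 290 of 3868 were higher, and in coding regions 93 were higher and 2994 lower of 4797. For 3' UTR over stop codon 342 were higher and 57 lower of 529. With this scaling YNL190W had a 3' UTR log2 fold of -0.47 and YER138W-A a 3' UTR over stop codon fold of 0.0057, both reversed. With the strain as a replicate block, calls were 10 higher in the 3' UTR, 4 higher and 9 lower in the 5' UTR, 41 higher and 50 lower at the start codon, and 36 lower in coding regions; no other count of calls moved by over 1.5 times. DESeq2 called 6 members higher at the start codon and 40 higher for 3' UTR over stop codon, beside 79 of 3868 and 79 of 529 genes. Without a filter 8 members were higher in the 3' UTR, beside 47 of 4983 genes. For 3' UTR over stop codon 112 members were higher, beside 271 of 4913 genes, and the scaling itself shifted by 0.67. Keeping the scaling of the filtered genes, an alternative chosen after seeing the data, gave 57 members, beside 115 of 4913 genes. Leaving out single libraries gave 2 to 8 higher and 3 to 4 lower in the 3' UTR, 0 to 1 higher and 9 to 21 lower at the start codon, and 13 to 23 lower in coding regions. Over all genes these were 10 to 45 higher and 10 to 17 lower in the 3' UTR. At the start codon they were 1 to 18 higher and 45 to 130 lower, and in coding regions 350 to 532 lower. The share of members with a same-strand start close downstream was 2.5% or 3% when unselected library 1-2 or 1-3 was left out of the choice, 0.5% within 150 nt and 27.5% within 600 nt. The median bound ratio of 5.93 moved by less than the SD of 2.03 between bound libraries under every alternative tried. The cause of these changes was not tested. Of the alternatives for 32 named results, 303 kept call and direction, 35 lost the call and 2 reversed. Low stop codon counts, 3 or fewer in 19 members, limit single ratios.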
